A study of Homo sapiens with 6 samples.

Results

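The nuclear-encoded genes of respiratory complexes II to V were taken as every symbol that starts with SDHA, SDHB, SDHC, SDHD, UQCR, COX followed by a digit, or ATP5, together with CYC1. The search matched 61 symbols, of which 1 hyphenated read-through symbol was dropped, and left 60 of the 17448 genes in the table. Complex II had 8 members (4 subunits and 4 SDHAF assembly factors), complex III had 10 subunits, complex IV had 23 members (13 subunits, 9 assembly factors and the supercomplex factor COX7A2L) and complex V had 19 (18 subunits and the inhibitor ATP5IF1). RNA was sequenced from HCC2814, a human lung squamous cell carcinoma (LUSC) line. The 3 WT samples carried a non-targeting control sgRNA and the 3 MLST8-KO samples carried a CRISPR sgRNA against MLST8, a subunit shared by the mTOR kinase complexes. Both groups were cultured in DMEM with fetal bovine serum, received Cas9 and the sgRNA by lentivirus and were selected with antibiotic, so an MLST8-KO sample is a selected population in which unedited cells can remain. The labels give the 3 replicates of each group as independent experiments.

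The respiratory chain of the inner mitochondrial membrane passes electrons to oxygen and pumps protons, and the ATP synthase uses the proton gradient to make ATP. Complex II (succinate dehydrogenase) is also an enzyme of the tricarboxylic acid cycle and pumps no protons, complex III hands electrons to cytochrome c, complex IV (cytochrome c oxidase) reduces oxygen, and complex V is the ATP synthase. Complexes III, IV and V combine nuclear-encoded subunits with subunits encoded by mitochondrial DNA, and the latter were not analysed here, since none of them has a row in the table used.

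Totals were 14381673 to 15744154 estimated counts per sample. MLST8 itself had 874, 827 and 842 counts in WT and 396, 629 and 401 in MLST8-KO, a log2 fold change of -0.96 ± 0.15 (SE) with an adjusted p of 0.00339 (edgeR quasi-likelihood test, Benjamini-Hochberg over 12951 genes). The MLST8-KO samples were thus below all WT samples, with MLST8-KO replicate 2 the highest of the 3. All 7 squamous markers were detected in every sample, with summed levels of 12555 to 18560 CPM (counts scaled to a fixed library total with TMM factors) in WT and 21106 to 23463 CPM in MLST8-KO. Of the 3 lung adenocarcinoma markers, NAPSA and SFTPB had at most 3 counts in any sample, and NKX2-1 had 59, 40 and 24 counts in WT and 166, 163 and 138 in MLST8-KO. MLST8-KO replicate 1 stood apart in markers of other cells: its 7 liver markers summed to 236 CPM against 0.505 to 6.50 CPM elsewhere, and its 2 cartilage markers to 24.9 CPM against at most 0.995 CPM. The part of these markers in the results below was not tested, and results are therefore also given without this library. Over all tested genes it was not the most distant replicate. Its mean chi-square per gene was 6.93 against MLST8-KO replicate 2 and 6.77 against replicate 3, which differed from each other by 9.42. Among WT samples it was 8.84 (replicates 1 and 2), 10.1 (2 and 3) and 26.2 (1 and 3).

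Of the 60 members, 57 passed the filter on low counts and were tested. In MLST8-KO 16 of them fell and 2 rose, or 28.1% lower and 3.51% higher, where 15.7% of all tested genes were called lower and 16.3% higher. The members are abundant transcripts, so genes with a mean of at least 20 CPM give a closer background: 20.8% of those were called lower and 15.1% higher, beside 15 lower and 1 higher of the 51 members at that level. The estimated log2 fold change was negative for 48 of the 57 and positive for 9, with a median of -0.21, where the median over all tested genes was 0.00. In CPM every MLST8-KO sample lay below every WT sample for 26 members and above for 3, against 24.2% and 24.8% of all tested genes. The signs, the median and the overlap of groups were not taken for genes with at least 20 CPM. They are therefore set beside the wider background only. The 18 called members include 12 subunits, 5 assembly factors and COX7A2L, and for all 18 the groups did not overlap in CPM or in TPM.

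**Figure D1:**
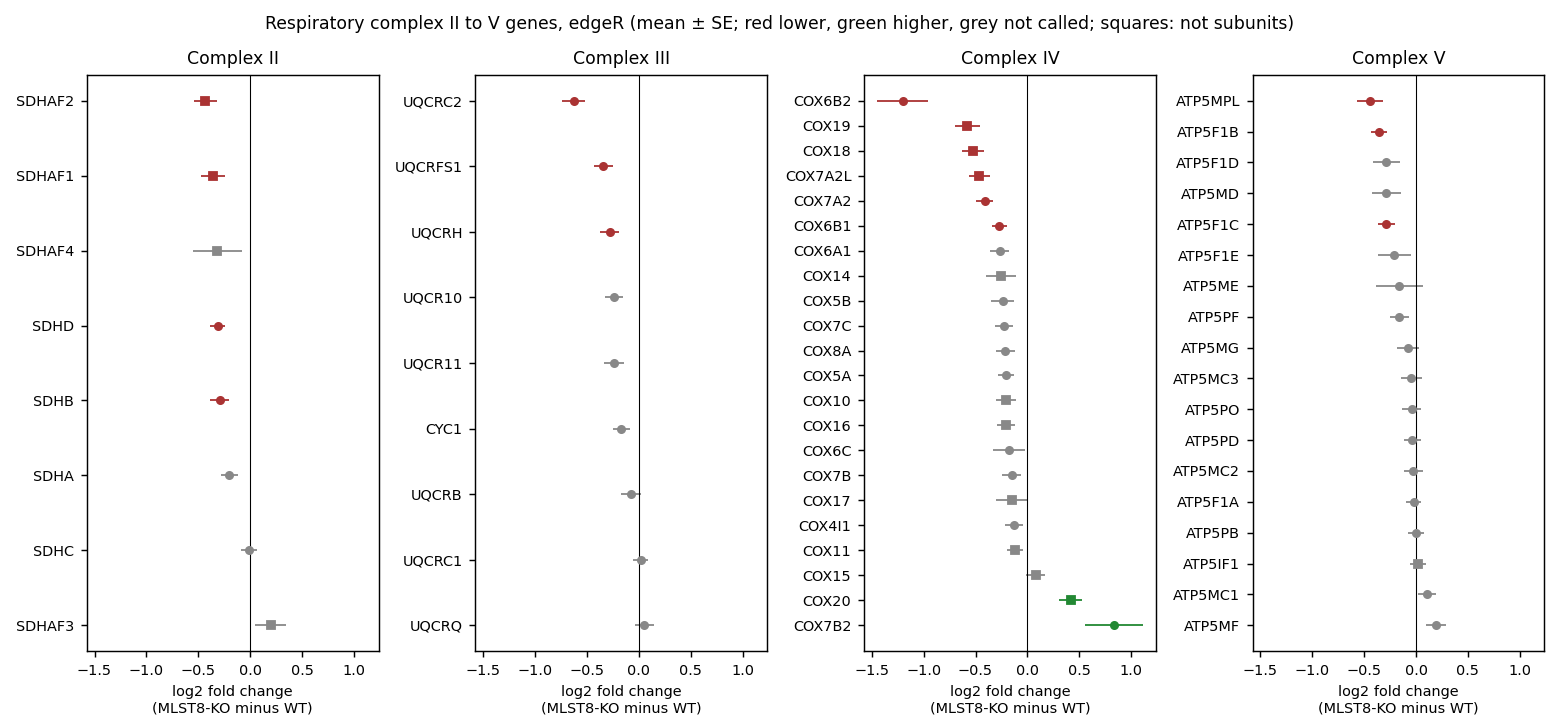
Log2 fold change (MLST8-KO minus WT, edgeR) on the x axis for each of the 57 tested genes, 1 panel per complex, with bars of 1 SE. Red and green mark genes called lower and higher at an adjusted p under 0.05, grey marks genes not called, and squares mark genes that are not subunits. Most genes of every complex sit left of 0, including 15 of 18 in complex V, whose median of -0.06 is the nearest to 0.

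The complexes can be set side by side by how many subunits fell. Of the tested subunits 2 of 4 in complex II, 3 of 9 in complex III, 3 of 12 in complex IV and 3 of 17 in complex V were called lower, and 1 of complex IV was called higher. As shares these are 50%, 33.3%, 25% and 17.6%, beside 15.7% of all tested genes and 20.8% of those with at least 20 CPM. Complexes IV and V thus lie near the background. The share of complex II rests on SDHB and SDHD, called in 7 and 11 of 15 alternative analyses. The subunits called in all 15 were UQCRC2 in complex III, COX7A2 and COX6B2 in complex IV and ATP5F1B in complex V. The order of the shares therefore depends on the analysis. The median log2 fold change was -0.25 for complex II, -0.24 for complex III and -0.22 for complex IV subunits, and -0.08 for complex V subunits. On the TPM scale, which sets counts relative to transcript length and to the whole pool and was tested with limma, the median of all genes moved up to 0.09 and the complex medians moved up with it, to -0.15, -0.13, -0.12 and 0.028. The sign of the complex V median therefore turned, while all 4 stayed below the median of all genes. No test of the difference between complexes was made, since genes are not replicates.

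Summed over subunits, transcripts of complex II reached 765, 773 and 799 TPM in the WT samples and 693, 722 and 705 TPM in the MLST8-KO samples. Complex III subunits summed to 2241, 2338 and 2415 TPM in WT and to 2139, 2068 and 2132 TPM in MLST8-KO. Complex IV subunits summed to 6825, 6624 and 7236 TPM in WT and to 6532, 6358 and 6117 TPM in MLST8-KO. In these 3 complexes the groups did not overlap, and the MLST8-KO mean changed by -9.26%, -9.36% and -8.11%, respectively. Complex V subunits summed to 6100, 6343 and 5985 TPM in WT and to 6282, 5939 and 5891 TPM in MLST8-KO, so the groups overlapped, and the means of 6143 ± 183 (SD, n = 3) and 6037 ± 213 TPM differed by less than the spread. With 3 samples against 3, an exact permutation test of such a sum cannot go below 0.1 (two-sided). Summed TPM is a level in the RNA pool, so fewer transcripts per cell and a larger pool of other transcripts cannot be told apart.

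**Figure D2:**
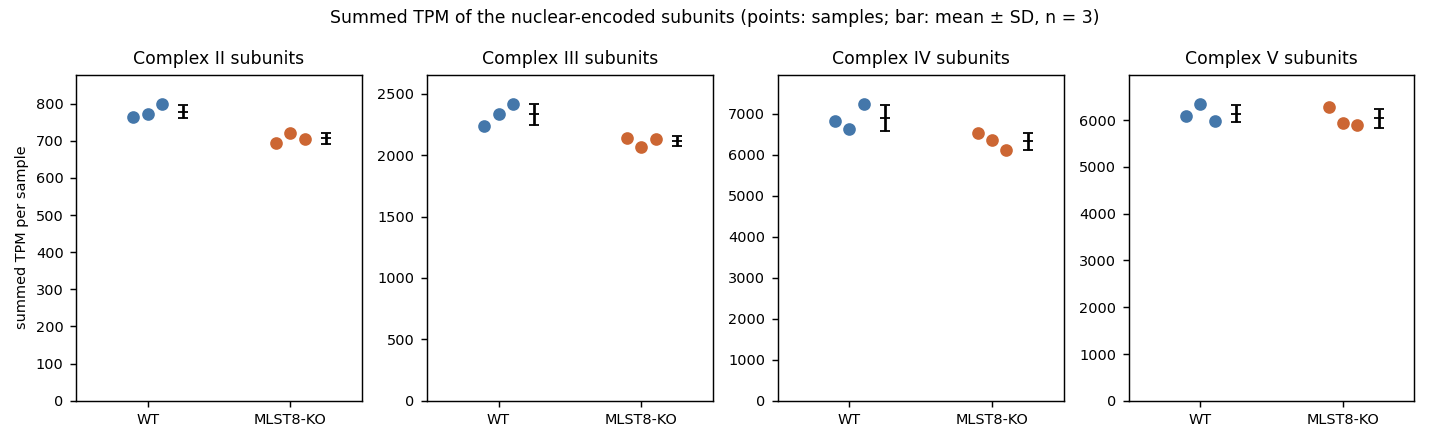
Summed TPM of the nuclear-encoded subunits on the y axis, starting at 0, for the 3 WT and 3 MLST8-KO samples (points), with the mean and SD beside them. The groups are separate in complexes II, III and IV and overlap in complex V.

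Levels per length spanned a wide range among members. By mean TPM over the 6 samples, the most abundant subunit was SDHB at 264 TPM in complex II, UQCRH at 811 TPM in complex III, COX6A1 at 1126 TPM in complex IV and ATP5F1B at 912 TPM in complex V. The tested members of complex II lay between 9.81 and 264 TPM, those of complex III between 30.3 and 811 TPM, those of complex IV between 3.88 and 1126 TPM, and those of complex V between 95.4 and 912 TPM. Assembly factors were scarcer: the median gene among 13 of them was at 38.6 TPM, against 268 TPM among the tested subunits. COX6A1, a structural subunit, had 1189 ± 123 TPM in WT and 1062 ± 17.2 TPM in MLST8-KO (SD, n = 3), with groups that did not overlap, but its log2 fold change of -0.27 ± 0.09 missed the threshold with an edgeR adjusted p of 0.051.

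**Figure D3:**
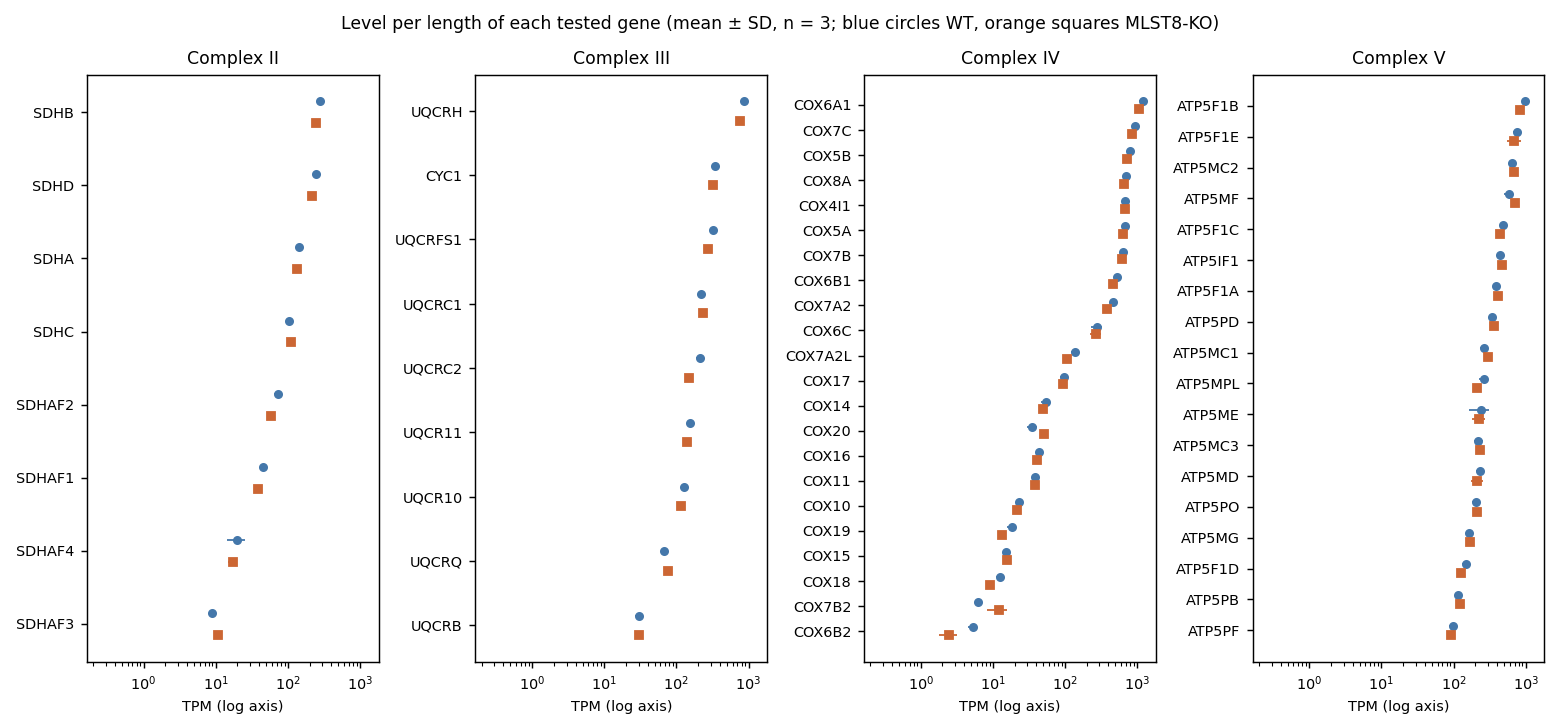
Mean TPM (log axis) of each tested gene in WT (blue circles) and MLST8-KO (orange squares), with bars of 1 SD over 3 samples, ordered by level within each complex. Most subunits lie above the assembly factors, but the subunits COX6B2 (3.88 TPM) and COX7B2 (9.12 TPM) are the lowest genes of complex IV.

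Promoter sequences, which the selection did not use, were set beside the values and searched for 3 motifs. RefSeq windows of 300 bases (250 before to 50 after a transcript start, GRCh38.p14) matched 49 members with 59 windows. The NRF1 motif (GCGCA, any base, then GCGC, searched on both strands like the others) was present in 27.1% of member windows, 9.60% of the windows of all tested genes and 5.78% of all 35116 windows. The ETS motif CCGGAAG was present in 40.7%, 16.6% and 10.3%, and the YY1 motif AAGATGGC in 11.9%, 4.64% and 2.89%, respectively. Windows of 1 gene can overlap, and where matches of a motif overlapped on both strands a window still counted once. Any of the 3 motifs was found in 55.6% of the windows of members called lower, 66.7% of those of members not called and 27.3% of those of all tested genes. By motif the order varied: NRF1 was in 33.3% of the windows of members called lower and 25% of those not called, ETS in 27.8% and 50%, and YY1 in 5.56% and 16.7%. The windows of the core subunits UQCRC2, which fell, and UQCRC1, which was not called, and of SDHD, which fell, are shown as examples. Partner subunits are set side by side below, but SDHC, the partner of SDHD, had no window. A link between motifs and calls was not tested. Capitals mark the motifs: GCGCCTGCGC and AAGATGGC in UQCRC1, GCGCATGCGC and CTTCCGG (the ETS motif on the other strand) in SDHD, and none of these letters in UQCRC2.
UQCRC2, chr16:21953111-21953410, + strand: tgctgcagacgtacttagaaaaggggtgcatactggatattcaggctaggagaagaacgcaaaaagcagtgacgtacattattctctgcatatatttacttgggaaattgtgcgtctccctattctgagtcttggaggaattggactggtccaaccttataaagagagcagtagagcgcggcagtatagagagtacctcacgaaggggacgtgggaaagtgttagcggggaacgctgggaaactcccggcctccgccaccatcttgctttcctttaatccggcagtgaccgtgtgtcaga
UQCRC1, chr3:48609597-48609896, - strand: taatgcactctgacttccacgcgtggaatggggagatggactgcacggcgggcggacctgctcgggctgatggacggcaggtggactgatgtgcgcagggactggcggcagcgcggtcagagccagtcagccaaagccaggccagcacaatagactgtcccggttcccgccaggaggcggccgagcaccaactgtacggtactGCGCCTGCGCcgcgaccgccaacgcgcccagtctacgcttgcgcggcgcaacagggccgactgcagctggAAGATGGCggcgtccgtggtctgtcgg
SDHD, chr11:112086623-112086922, + strand: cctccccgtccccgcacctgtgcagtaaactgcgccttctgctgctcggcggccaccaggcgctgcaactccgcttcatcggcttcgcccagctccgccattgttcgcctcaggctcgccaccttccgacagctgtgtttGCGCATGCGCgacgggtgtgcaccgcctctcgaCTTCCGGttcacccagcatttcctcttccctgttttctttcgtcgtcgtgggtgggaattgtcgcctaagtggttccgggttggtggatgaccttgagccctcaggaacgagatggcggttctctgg
A match is a description of the letters and does not show binding.

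In complex II the iron-sulfur subunit SDHB and the membrane anchor SDHD fell, while the catalytic flavoprotein SDHA and the anchor SDHC were not called. SDHD (chr11:112086773-112120013) had 167, 177 and 177 CPM in WT and 140, 143 and 136 CPM in MLST8-KO. All MLST8-KO samples were below all WT samples, with a log2 fold change of -0.31 ± 0.07 and an edgeR adjusted p of 0.0108. SDHB (chr1:17018722-17054170) had 150, 150 and 173 CPM in WT and 121, 125 and 139 CPM in MLST8-KO. Its groups were also separate, with WT replicate 3 the highest, and the log2 fold change was -0.30 ± 0.09 (edgeR adjusted p 0.0311). SDHA (chr5:218241-256700) had 199, 216 and 235 CPM in WT and 188, 186 and 191 CPM in MLST8-KO, with no overlap, and its log2 fold change of -0.20 ± 0.08 missed the threshold (edgeR adjusted p 0.0760). SDHC (chr1:161314257-161375340) overlapped between the groups, at 170, 153 and 149 CPM in WT and 159, 153 and 157 CPM in MLST8-KO, and the 95% interval of its log2 fold change ran from -0.18 to 0.16. Without MLST8-KO replicate 1 SDHD kept its call (edgeR adjusted p 0.0499) and SDHB did not (0.126). The SDHB call was also lost without WT replicate 2 (0.0673), WT replicate 3 (0.0713) or MLST8-KO replicate 2 (0.0969), and that of SDHD without WT replicate 2 (0.0535). On the TPM scale with limma neither SDHB nor SDHD passed (adjusted p 0.0984 and 0.0554), nor did SDHB with upper quartile scaling in edgeR (0.0538).

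The complex II assembly factors fell for a pair of members and not for the other two. SDHAF2, which attaches the flavin to SDHA, had 37.2, 43.7 and 50.7 CPM in WT and 32.3, 32.0 and 33.0 CPM in MLST8-KO. The MLST8-KO samples were close together below all WT samples, and the log2 fold change was -0.43 ± 0.11 (edgeR adjusted p 0.0169). SDHAF1, which helps insert the iron-sulfur clusters of SDHB, had 25.8, 23.6 and 25.5 CPM in WT and 18.6, 17.7 and 22.2 CPM in MLST8-KO, also without overlap, with a log2 fold change of -0.36 ± 0.11 (edgeR adjusted p 0.0339). SDHAF3 and SDHAF4, further factors of SDHB and SDHA maturation, had groups that overlapped in CPM, with log2 fold changes of 0.20 ± 0.15 and -0.32 ± 0.24. In TPM the SDHAF3 groups were separate, at 8.98, 8.36 and 9.02 TPM in WT and 9.78, 10.2 and 12.5 TPM in MLST8-KO. Exons of SDHAF2 share 30.5% of their bases with another protein-coding gene on the same strand, AP003108.2. The SDHAF2 counts were whole numbers in every sample, and the part of this overlap in them was not tested. Neither call held without MLST8-KO replicate 1, MLST8-KO replicate 2 or WT replicate 2, with edgeR adjusted p values of 0.0644, 0.0612 and 0.0584 for SDHAF2 and 0.125, 0.115 and 0.0710 for SDHAF1. SDHAF1 was also not called without WT replicate 3 (0.0536), with upper quartile scaling (0.0595) or with limma on TPM (0.0627).

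In complex III the core subunit UQCRC2 fell the most, and the Rieske iron-sulfur protein UQCRFS1 and the hinge protein UQCRH fell less. UQCRC2 (chr16:21952660-21983660) had 215, 234 and 290 CPM in WT and 153, 159 and 166 CPM in MLST8-KO. Every MLST8-KO sample was below the lowest WT sample, the log2 fold change was -0.63 ± 0.11 with an edgeR adjusted p of 0.00412, and the call held in all 15 alternative analyses. UQCRFS1 (chr19:29205321-29213541) had 178, 194 and 211 CPM in WT and 153, 142 and 164 CPM in MLST8-KO, a log2 fold change of -0.34 ± 0.09 (edgeR adjusted p 0.0176). UQCRH (chr1:46303631-46316776), the most abundant subunit of the complex, had 209, 234 and 244 CPM in WT and 203, 174 and 189 CPM in MLST8-KO. Its groups were narrowly separate, with MLST8-KO replicate 1 close to WT replicate 1, and the log2 fold change was -0.28 ± 0.09 (edgeR adjusted p 0.0364). UQCRH and its near copy UQCRHL had counts that were not whole numbers, so reads were split between them, and UQCRHL held 3.01, 0 and 2.02 counts in WT and 0 in each MLST8-KO sample, so no fold change is given for it.

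The other core subunit of complex III, UQCRC1 (chr3:48599002-48610976), was not called. It had 180, 172 and 183 CPM in WT and 175, 174 and 191 CPM in MLST8-KO. Its groups overlapped in CPM, and the interval for the log2 fold change ran from -0.15 to 0.18. In TPM every MLST8-KO sample was above every WT sample, at 222, 211 and 217 TPM in WT and 230, 235 and 244 TPM in MLST8-KO. The ratio of UQCRC2 to UQCRC1 TPM within a sample was 0.847, 0.972 and 1.13 in WT and 0.622, 0.646 and 0.616 in MLST8-KO. The remaining 5 tested subunits (CYC1, UQCRB, UQCRQ, UQCR10 and UQCR11) were not called, with log2 fold changes from -0.24 to 0.05. Of these, UQCR10 came nearest to the threshold with an edgeR adjusted p of 0.0592. The UQCRFS1 call was lost without WT replicate 2 (0.0653), MLST8-KO replicate 1 (0.0659) or MLST8-KO replicate 2 (0.0718). That of UQCRH held in 1 of the 6 edgeR fits that leave out 1 sample, without WT replicate 1, and had an adjusted p of 0.0571 without MLST8-KO replicate 1, 0.0752 with upper quartile scaling and 0.123 with limma on TPM.

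In complex IV the subunits COX7A2, COX6B1 and COX6B2 fell and COX7B2 rose. COX7A2 (chr6:75237675-75250323), a structural subunit, had 132, 155 and 143 CPM in WT and 112, 101 and 110 CPM in MLST8-KO. Its groups were well separated, with a log2 fold change of -0.41 ± 0.09 (edgeR adjusted p 0.00751), and the call held in all 15 alternatives. COX6B1 (chr19:35648223-35658861), which faces the intermembrane space, had 128, 122 and 133 CPM in WT and 109, 104 and 105 CPM in MLST8-KO, a log2 fold change of -0.27 ± 0.07 (edgeR adjusted p 0.0218). COX7A2L (chr2:42333546-42425088), which joins complexes III and IV into supercomplexes, had 65.5, 78.6 and 84.2 CPM in WT and 57.3, 52.4 and 56.0 CPM in MLST8-KO. It was below every WT sample in all MLST8-KO samples, with a log2 fold change of -0.46 ± 0.10 (edgeR adjusted p 0.00927). Without MLST8-KO replicate 1 COX7A2 and COX7A2L kept their calls (0.0320 and 0.0362) and COX6B1 did not (0.0637). The COX6B1 call was also lost without WT replicate 2 (0.0553), MLST8-KO replicate 2 (0.0705) or MLST8-KO replicate 3 (0.0566), and with limma on TPM (0.105), and it narrowly missed the threshold with upper quartile scaling.

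The isoform pairs of complex IV were dominated by their widely expressed members. The testis-enriched COX6B2 had 59, 61 and 74 counts in WT and 21, 38 and 33 in MLST8-KO. The MLST8-KO samples were all lower, the log2 fold change was -1.20 ± 0.24 (edgeR adjusted p 0.00704), and it remained called in every alternative. Its level was 5.28 ± 0.76 TPM in WT and 2.47 ± 0.69 TPM in MLST8-KO (SD, n = 3), beside 525 ± 25.3 and 468 ± 10.4 TPM for COX6B1, and its exons share 30.9% of their bases with the same-strand gene AC020922.1. COX7B2 had 18, 22 and 20 counts in WT and 35, 52 and 30 in MLST8-KO, a log2 fold change of 0.83 ± 0.28 (edgeR adjusted p 0.0417), beside a log2 fold change of -0.15 ± 0.09 for COX7B, which was not called. The COX7B2 call was lost without MLST8-KO replicate 1 (edgeR adjusted p 0.0872), in the fits without MLST8-KO replicate 2 (0.159) or any 1 of the WT replicates (0.0671 to 0.0928), and with DESeq2 (0.114). COX8C held at most 2 counts in any sample, and COX8A, its abundant partner, had a log2 fold change of -0.21 ± 0.09. COX4I1 had a log2 fold change of -0.13 ± 0.09 and was not called. COX4I2, COX6A2 and COX7A1 were not analysed here.

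Among the complex IV assembly factors COX18 and COX19 fell and COX20 rose, while the other 6 were not called, with log2 fold changes from -0.26 to 0.08. COX18 (chr4:73052362-73069755), which inserts the tail of COX2 into the membrane, had 23.3, 24.2 and 27.1 CPM in WT and 18.1, 16.8 and 16.8 CPM in MLST8-KO. The MLST8-KO samples were close together below WT, with a log2 fold change of -0.53 ± 0.10 (edgeR adjusted p 0.0063). COX19 (chr7:898778-975599), a protein of the copper delivery path, had 40.3, 51.0 and 55.9 CPM in WT and 31.8, 33.8 and 32.8 CPM in MLST8-KO, a log2 fold change of -0.58 ± 0.12 (edgeR adjusted p 0.00698). ADAP1 covers 21.4% of COX19's exon bases on the same strand, and its own log2 fold change was -0.11 ± 0.13. COX20 (chr1:244835322-244845057), a chaperone of newly made COX2, had 52.3, 48.2 and 39.7 CPM in WT and 67.5, 60.9 and 58.8 CPM in MLST8-KO. All MLST8-KO samples were above all WT samples, and the log2 fold change was 0.42 ± 0.11 (edgeR adjusted p 0.0179). HNRNPU on the opposite strand covers 72.0% of COX20's exon bases and had 524, 492 and 465 CPM in WT and 571, 558 and 541 CPM in MLST8-KO. Its part in the COX20 value was not tested. The COX20 call was lost without MLST8-KO replicate 1 (edgeR adjusted p 0.0818), MLST8-KO replicate 2 (0.0527) or WT replicate 2 (0.0583), while COX18 and COX19 kept theirs without MLST8-KO replicate 1 (0.0292 and 0.0373).

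**Figure D4:**
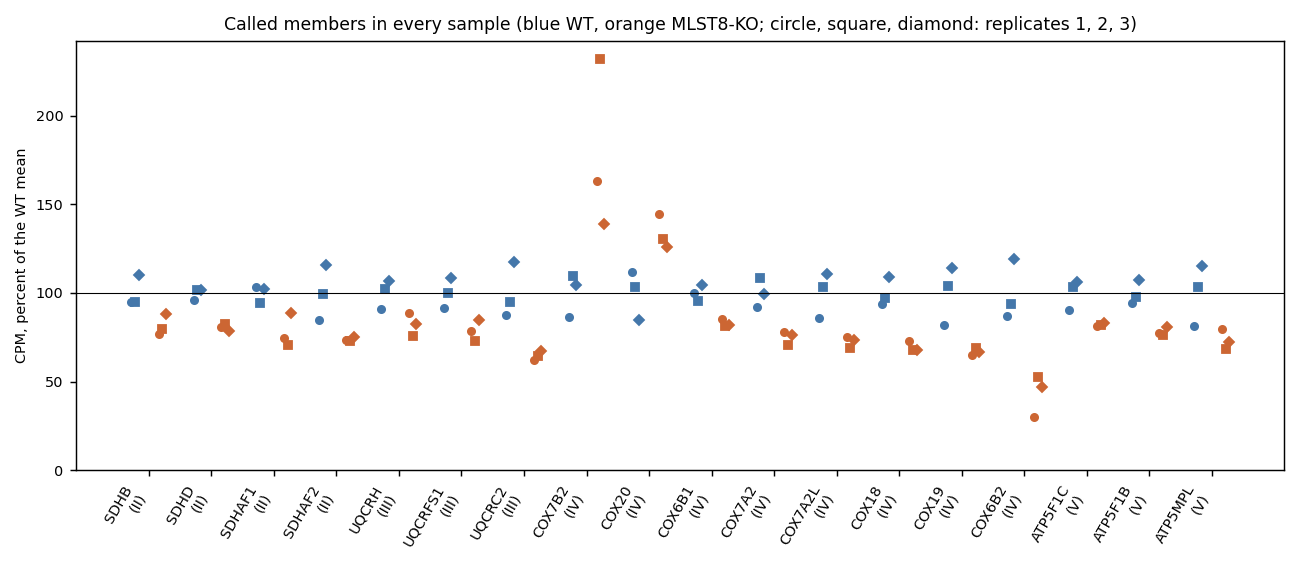
CPM of the 18 called members in each sample, as a percent of that gene's WT mean (y axis, from 0), WT in blue and MLST8-KO in orange, with marker shapes for replicates 1 to 3. The WT points spread around 100 and the MLST8-KO points of 16 genes lie below all WT points, with COX7B2 and COX20 above.

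In complex V the catalytic subunit ATP5F1B and the rotor subunit ATP5F1C fell, both in the F1 head and its shaft, along with the small membrane protein ATP5MPL. ATP5F1B (chr12:56638175-56646068), the beta subunit, had 888, 920 and 1009 CPM in WT and 728, 718 and 759 CPM in MLST8-KO. It was separated by a wide gap and had a log2 fold change of -0.35 ± 0.08 (edgeR adjusted p 0.00944), a call that held in all 15 alternatives. ATP5F1C (chr10:7788129-7807815), the gamma subunit, had 253, 290 and 297 CPM in WT and 227, 229 and 234 CPM in MLST8-KO, a log2 fold change of -0.28 ± 0.08 (edgeR adjusted p 0.0247). ATP5MPL (chr14:103912288-103928269) had 60.4, 76.6 and 85.6 CPM in WT and 59.0, 50.9 and 53.8 CPM in MLST8-KO, so MLST8-KO replicate 1 came close to WT replicate 1, and its log2 fold change was -0.44 ± 0.12 (edgeR adjusted p 0.022). Without MLST8-KO replicate 1, ATP5F1B (edgeR adjusted p 0.0471) and ATP5MPL (0.0488) kept their calls and ATP5F1C did not (0.0899). The ATP5F1C call held in 1 of the 6 edgeR fits that leave out 1 sample, without WT replicate 1, and was lost with limma on TPM (0.105). That of ATP5MPL was lost without WT replicate 2 (0.0800), MLST8-KO replicate 2 (0.0855) or MLST8-KO replicate 3 (0.0685).

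The alpha subunit ATP5F1A, the partner of ATP5F1B in the catalytic ring, was not called. It had 397, 379 and 371 CPM in WT and 380, 381 and 368 CPM in MLST8-KO, with overlapping groups and an interval for its log2 fold change from -0.18 to 0.13. In the 5 F1 subunits 2 were called lower and the median log2 fold change was -0.28. No subunit of the peripheral stalk (4 tested) or of the c ring (3 tested) was called, with ranges from -0.16 to 0.00 and from -0.04 to 0.10. Among the 5 remaining membrane subunits only ATP5MPL was called. ATP5MF had 115, 118 and 93.9 CPM in WT and 128, 120 and 124 CPM in MLST8-KO. Every MLST8-KO sample was thus above every WT sample, but its log2 fold change of 0.19 ± 0.10 was not called (edgeR adjusted p 0.152). ATP5IF1, which blocks the synthase when it runs in reverse, was at 122 ± 5.63 CPM in WT and 124 ± 4.38 CPM in MLST8-KO (SD, n = 3), and the interval of its log2 fold change ran from -0.15 to 0.19. ATP5MGL had at most 1 count.

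The c ring is made from 3 genes whose mature proteins are the same. ATP5MC2 supplied 59.4%, 54.9% and 58.7% of the ring's TPM in WT and 55.4%, 56.6% and 57.5% in MLST8-KO. The groups overlapped, as did those of ATP5MC3, with 19.4% ± 1.70 in WT and 18.8% ± 1.47 in MLST8-KO (SD, n = 3). ATP5MC1 supplied 22.5%, 23.8% and 22.6% in WT and 24.1%, 25.7% and 24.2% in MLST8-KO, a narrow separation of shares that rest on the same sum, while its log2 fold change of 0.10 ± 0.09 was not called.

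Ratios within a sample put partner subunits side by side with depth and scaling removed. These pairs were chosen after the values were seen, so the ratios are descriptions and no test was made. The ratio of ATP5F1B to ATP5F1A was 2.34, 2.55 and 2.85 in WT and 2.01, 1.97 and 2.16 in MLST8-KO. That of SDHD to SDHC was 2.13, 2.47 and 2.54 in WT and 1.89, 2.02 and 1.87 in MLST8-KO. These were separated as the UQCRC2 to UQCRC1 ratio was, while the SDHB to SDHA ratio overlapped, with 1.96 ± 0.08 in WT and 1.87 ± 0.11 in MLST8-KO (SD, n = 3). The ratio of COX20 to COX18, factors that act on the same subunit, was 3.54, 3.04 and 2.06 in WT and 5.51, 5.31 and 5.63 in MLST8-KO.

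**Figure D5:**
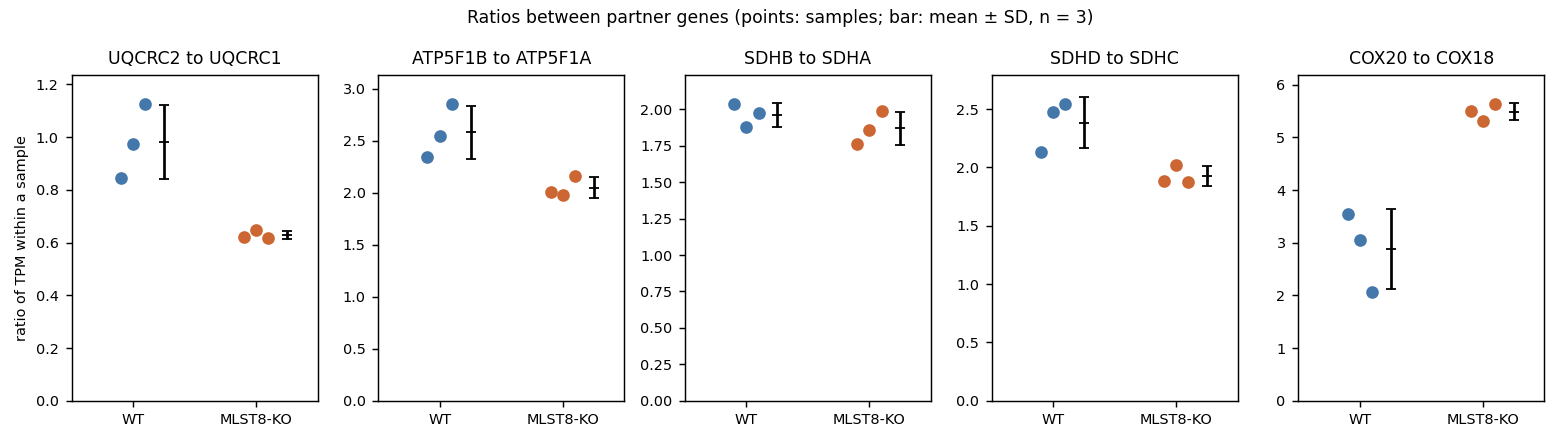
Ratio of TPM between partner genes within each sample (y axis, from 0) for 3 WT and 3 MLST8-KO samples, with the mean and SD beside the points. All but SDHB to SDHA are separate between the groups.

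Other genes of the pathway were counted from lists written from textbook knowledge, and the shares called lower are read beside the 15.7% of all tested genes and 20.8% of those with at least 20 CPM. Both genes of the cytochrome c step fell. CYCS, the electron carrier between complexes III and IV, had 648 ± 73.2 CPM in WT and 426 ± 21.6 CPM in MLST8-KO (SD, n = 3), a log2 fold change of -0.61 ± 0.09, and was called in all 15 alternatives. HCCS, which attaches its heme, had a log2 fold change of -0.45 ± 0.10 and lost its call without MLST8-KO replicate 1 (edgeR adjusted p 0.0582). Among 6 assembly factors of complex III, 3 fell (UQCC1 by 0.61, UQCC2 by 0.34 and TTC19 by 0.32 on the log2 scale), and without that library only UQCC1 of these was called. Of 18 factors for complex IV, PET117 rose (log2 fold change 0.45) and CMC2, COA1 and FASTKD5 fell by 0.42, 0.37 and 0.70, which is 16.7% lower, near the background, and all but PET117 were called without that library. Of 6 factors for complex V, TMEM70 and TMEM242 fell by 0.65 and 0.48, and TMEM242 lost its call without it (0.0573). Of 14 mitochondrial transcription and biogenesis factors 3 fell (21.4%, near the background), TFB2M, POLRMT and MTERF1, by 0.76, 0.33 and 0.58. POLRMT lost its call without MLST8-KO replicate 1 (0.119) and was called in 7 of 15 alternatives, and PPARGC1A, ESRRA, TFAM and NRF1 were not called.

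Metabolite carriers and cycle enzymes gave a mixed picture. Of 7 carriers and pore proteins, the phosphate carrier SLC25A3 and the outer membrane channels VDAC1 and VDAC2 fell, by 0.35, 0.22 and 0.53 on the log2 scale, and SLC25A6, which exchanges ADP and ATP, rose by 0.23. Without MLST8-KO replicate 1 VDAC1 and SLC25A6 were not called (edgeR adjusted p 0.129 for both), and they were called in 4 and 8 of the 15 alternatives. Of 13 tricarboxylic acid cycle enzymes other than succinate dehydrogenase, DLST and MDH2 fell by 0.48 and 0.28 (15.4% of the list, at the background). DLST was called in all 15 alternatives and MDH2 in 7, with an adjusted p of 0.113 without MLST8-KO replicate 1. For comparison, 4 of 37 genes with complex I subunit symbols (10.8%) were called lower and none higher. Their median was -0.08 on the log2 scale, and none of the 4 was called without that library. Of 75 mitochondrial ribosomal proteins 20 were called lower (26.7%) and 1 higher (median -0.16), and 7 of these 21 were called without it. NDUFA4 and NDUFA4L2, counted with complex IV outside the selection, were not called. By its symbol NDUFA4 is also among the 37 genes above.

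The 18 calls differed in how far they rest on single libraries. Without MLST8-KO replicate 1, 9 of the 18 kept their call, and 7 kept it in every one of the 6 fits that leave out 1 sample. Calls across all tested genes also fell without MLST8-KO replicate 1, from 2116 higher and 2030 lower to 979 higher and 850 lower. The loss is therefore not particular to these members. Among members that were not called, ATP5F1E, the epsilon subunit, had 134 CPM in MLST8-KO replicate 1 against 87.9 and 89.7 CPM in the other MLST8-KO samples, and ATP5ME had 38.8 CPM in WT replicate 2 against 23.1 and 22.2 CPM. Leaving out MLST8-KO replicate 1 changed the ATP5F1E log2 fold change from -0.21 to -0.43 (adjusted p 0.053, edgeR). For each sample, the deviation from the mean of the other replicates of its group was taken on the log2 scale. Its median over the 57 members was -0.12 in WT replicate 1 and 0.11 in WT replicate 3. In the MLST8-KO samples it lay between -0.05 and 0.04.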

How the data were processed

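RNA-seq (polyA, DNBSEQ) of 3 WT and 3 MLST8-KO HCC2814 samples was used. Alignment by the authors used HISAT (GRCh38.p12) and Bowtie2 (reference genes) after read filtering. Per gene they deposited estimated counts and TPM values, and the quantifier is not given in the sources used here. About 12.4% of counts were not whole and were rounded. The authors' table of group differences holds their own fold changes and p-values and was not used. Groups were compared with edgeR 4.0.16 (R 4.3.3): TMM scaling, filterByExpr, quasi-likelihood test, Benjamini-Hochberg over 12951 genes, threshold 0.05. SEs were derived from the log2 fold change and its F statistic. CPM were used between samples and TPM between genes. On simulated counts for 12951 genes with 200 changed by a log2 fold change of 1, 87% were recovered. Of the calls, 9.85% were false, which is above the threshold of 0.05. All called members but COX6B2 changed by less than 1, so this recovery does not apply to changes of their size. Alternatives used DESeq2 1.42.0 and limma 3.58.1, other scalings and filters, and each sample left out. Genes were named by a rule: called members, the most abundant subunit of each complex, isoform families, complex II genes and ATP5IF1. Ratio pairs, overlapping genes and others that came near the threshold were chosen after their values were seen. Members and lists were chosen with earlier results of these data known. Counting limits cover counting error only. Exon overlaps and gene spans are from GENCODE v29 (GRCh38), where 31 of 60 members share exon bases with another gene, and promoter windows are from RefSeq (GRCh38.p14). Strand-specific counting is not stated.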

Additional observations from a re-analysis of the deposited data

How the results depend on the processing

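Direction held for all 18 called members in all 15 alternatives (270 values, of which 68 fell short of the threshold). These members were called from the same samples and their groups did not overlap. Their direction could therefore hardly turn, and that it held is no further support. DESeq2 called 1 member higher and 18 lower. The TPM-based limma fits called 10 members lower with pseudocounts of 1 and 0.1, and 5 without a filter. In those 3 fits the subunit medians were -0.15 for complex II, -0.13 for complex III, -0.12 for complex IV and 0.028 for complex V. Upper quartile scaling gave medians of -0.19, -0.19, -0.16 and -0.023 for complexes II to V and 12 members lower. Over all genes, the higher and lower calls were 2116 and 2030 with TMM, 2546 and 1559 with upper quartile scaling and 2629 and 1088 with limma on TPM, where the median of all genes was 0.09. Leaving out 1 sample at a time gave 0 to 2 members higher and 7 to 24 lower, and medians from -0.30 to -0.18 (complex II), -0.29 to -0.16 (III), -0.28 to -0.15 (IV) and -0.15 to -0.032 (V). Members lower numbered 7 without WT replicate 2, and 9 and 8 when MLST8-KO replicates 1 and 2 were left out. None was called higher in these 3 fits. Calls over all genes fell as well in these fits, in the same order to 971 higher and 1044 lower, 979 and 850, and 1136 and 1091. The cause was not tested. Members that were not called changed sign in some fits. SDHC was at 0.094 with limma at a pseudocount of 1, 0.095 at 0.1 and 0.043 with upper quartile scaling, and ran from -0.050 to 0.048 when 1 sample was left out. ATP5MC2 was at 0.080, 0.081 and 0.028 and ran from -0.082 to 0.045. ATP5MC3 was at 0.062, 0.062 and 0.0098 and ran from -0.14 to 0.034, and ATP5IF1 ran from -0.011 to 0.054.

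With the replicate number as a block, 2 members were higher and 17 lower, and no call was lost. Deviations of same-numbered samples correlated at 0.10, 0.06 and 0.14, so the numbers were not taken to pair the samples, although each sample correlated best with its own number. Depth limits UQCRHL, COX8C and ATP5MGL, which were at or near 0 counts.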
